A study of Mus musculus with 16 samples.

Results

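The T cell receptors of vitiligo-affected mouse skin were compared between clones seen in 1 cell and clones seen in several. A clone was all cells that shared the CDR3 nucleotide sequences of the TRA (receptor alpha) and TRB (receptor beta) contigs with most UMIs, among cells with 1 TRB and 1 or 2 TRA sequences. UMIs are molecular tags that count captured RNA molecules. The skin table held 701 such clones in 1322 cells: 518 clones of 1 cell, 148 of 2 to 4 cells (386 cells) and 35 of 5 or more cells (418 cells), out of 3187 clones in skin and lymph node together. Each clone was counted once, whatever its size.

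C57BL/6 mice aged 16 weeks with melanoma-associated vitiligo gave the CD8+CD44+ T cells, which were sorted and had been taken 45 days after tumor surgery from the skin and from the lymph node that drained the tumor. CD44 is commonly used as a marker of T cells that have met antigen, and whether each clone had done so was not tested. The 16 samples of the study are 4 lanes each of 4 libraries, and the skin receptors come from 1 of these libraries. The sources used here do not say how many mice were behind it, and no unaffected skin was among the groups.

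A T cell receptor pairs an alpha with a beta chain, each joined in the thymus from V and J segments (and a D segment in beta). Bases are trimmed and added where the segments meet, so that the junction, the CDR3, is nearly unique to a cell and its progeny. The CDR3 loops lie over the peptide held by an MHC molecule, and clones grow when their receptor meets its antigen. Beta rearrangement is largely shut off once a working chain is made, whereas alpha rearrangement often goes on on both chromosomes, so that some T cells express 2 alpha chains.

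No difference below has a replicate check, because there is 1 skin library and clones of 1 library are not replicates of a condition. No test was therefore run, and the intervals are exact Clopper-Pearson 95% intervals of shares of clones, or Newcombe intervals of differences between shares, and cover counting error only. An SD gives the spread between clones or cells, not the error of a mean. For differences between means no interval is printed. Kept contigs were shallow, with a median of 4 UMIs for TRB and 3 for TRA and a range of 1 to 24. The skin and lymph node tables had 12 cell barcodes in common. Of these, 3 had a clone in both tables, and 0 had the same TRB in both.

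The 13 clones of 10 or more cells held 267 cells, with 88 in the largest. Their CDR3 sequences are shown because they are the largest clones. They run from the codon of the first cysteine of the CDR3 to that of its last residue, and capitals mark bases that matched neither the germline V nor the germline J segment (mouse GENCODE release 21). The TRB of clone 11 is in lower case throughout, because its V segment had no usable germline match.
clone 1 TRB: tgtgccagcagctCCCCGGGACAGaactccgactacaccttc
clone 1 TRA: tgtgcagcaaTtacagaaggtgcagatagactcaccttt
clone 2 TRB: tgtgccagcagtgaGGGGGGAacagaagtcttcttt
clone 2 TRA: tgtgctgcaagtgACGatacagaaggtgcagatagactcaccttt
clone 3 TRB: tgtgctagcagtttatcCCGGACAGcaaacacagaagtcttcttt
clone 3 TRA: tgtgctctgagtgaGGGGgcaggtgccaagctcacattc
clone 4 TRB: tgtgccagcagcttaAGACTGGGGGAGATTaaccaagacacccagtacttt
clone 4 TRA: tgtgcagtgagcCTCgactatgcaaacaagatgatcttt
clone 5 TRB: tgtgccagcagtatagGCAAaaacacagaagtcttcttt
clone 5 TRA: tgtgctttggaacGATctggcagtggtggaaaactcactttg
clone 6 TRB: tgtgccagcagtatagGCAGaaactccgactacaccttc
clone 6 TRA: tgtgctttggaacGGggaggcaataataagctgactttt
clone 7 TRB: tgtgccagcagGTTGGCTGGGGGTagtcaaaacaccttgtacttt
clone 7 TRA: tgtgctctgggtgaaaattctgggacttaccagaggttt
clone 8 TRB: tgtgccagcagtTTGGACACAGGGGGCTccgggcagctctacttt
clone 8 TRA: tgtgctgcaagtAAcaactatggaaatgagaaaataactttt
clone 9 TRB: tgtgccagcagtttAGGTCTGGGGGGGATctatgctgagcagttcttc
clone 9 TRA: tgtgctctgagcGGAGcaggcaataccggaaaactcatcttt
clone 10 TRB: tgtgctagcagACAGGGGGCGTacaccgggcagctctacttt
clone 10 TRA: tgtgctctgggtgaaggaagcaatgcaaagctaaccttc
clone 11 TRB: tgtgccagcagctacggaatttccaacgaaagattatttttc
clone 11 TRA: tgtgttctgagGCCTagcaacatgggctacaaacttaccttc
clone 12 TRB: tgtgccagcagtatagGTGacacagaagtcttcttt
clone 12 TRA: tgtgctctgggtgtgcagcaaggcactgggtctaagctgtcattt
clone 13 TRB: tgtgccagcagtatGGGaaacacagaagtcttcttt
clone 13 TRA: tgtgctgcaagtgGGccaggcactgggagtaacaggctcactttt
Clone 1 joined TRBV3 to TRBJ1-2 and TRAV14-3 to TRAJ45, and clone 2 (23 cells) joined TRBV13-1 to TRBJ1-1 and TRAV5-4 to the same TRAJ45. Clone 3 (20 cells) carried TRBV29 with TRBJ1-1 and TRAV6-7-DV9 with TRAJ39, and clone 4 (17 cells) TRBV3 with TRBJ2-5 and TRAV7-5 with TRAJ47. Clones 5 and 6 (17 and 16 cells) both paired TRBV19 with TRAV13-1, over TRBJ1-1 with TRAJ44 and TRBJ1-2 with TRAJ56. Clones 7 and 8 held 15 cells each, with TRBV3, TRBJ2-4, TRAV6-6 and TRAJ13 in the first and TRBV19, TRBJ2-2, TRAV5-4 and TRAJ48 in the second. Clone 9 (14 cells) had TRBV14, TRBJ2-1, TRAV9N-4 and TRAJ37, and clone 10 (11 cells) had TRBV17, TRBJ2-2, TRAV6-6 and TRAJ42. Clone 11 (11 cells) was labelled TRBV10 and TRBJ1-4, with TRAV9D-2 and TRAJ9. Clones 12 and 13 (10 cells each) shared TRBV19 with TRBJ1-1, and their TRA were TRAV6-6 with TRAJ58 and TRAV5-4 with TRAJ28.

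TRBV19 was thus in 5 of these 13 clones and TRBV3 in 3, and 8 of the 13 used a J segment of the TRBJ1 cluster. The TRB CDR3 ranged from 12 to 17 residues and the TRA CDR3 from 13 to 15. Clone medians were 3 to 7 UMIs for TRB and 2 to 3 for TRA. In the 12 clones with a germline match, 3 to 16 TRB bases matched neither segment, and clones 12 and 13 were at the low end with 3. The TRA of clones 7, 10 and 12 had none at all. A second TRA was found in 2 of the 13, in 1 cell of clone 2 and in 4 cells of clone 8, which all carried the same one.

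TRBV19 was the most used beta segment in every size class, and its share was higher in larger clones. It was used by 52 of 518 clones of 1 cell (10.04%, interval 7.59 to 12.96), by 29 of 148 clones of 2 to 4 cells (19.6%, 13.5 to 26.9) and by 9 of 35 clones of 5 or more cells (25.7%, 12.5 to 43.3). The difference from clones of 1 cell was 9.56 points (3.26 to 17.0) for the middle class and 15.7 points (3.77 to 32.2) for the largest. The interval of the middle class lay above that of clones of 1 cell, whereas the interval of the largest class just touched it. Clones 8 and 23 (15 and 7 cells), both among the 9 large clones with TRBV19, had the same TRB nucleotide sequence. Their first TRA differed, and each showed a second TRA in 4 cells. Whether they are 1 clone was not tested. Among lymph node clones of 1 cell the share was 5.604% (4.72 to 6.59 of 2427 clones), below that of skin clones of 1 cell. The lymph node contigs were deeper, with a median of 7 TRB UMIs per clone against 3.5, and their part in this difference was not tested. Mouse Trbv19 lies on chromosome 6 of mm10, chr6:41178375-41179048 on the plus strand.

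TRBV31 showed the opposite order. It was in 30 clones of 1 cell (5.79%, 3.94 to 8.16), in 1 of 148 clones of 2 to 4 cells (0.676%, 0.0171 to 3.71) and in 0 of 35 larger clones, which allows a share of up to 8.57%. Lymph node clones of 1 cell stood between, at 2.43% (1.86 to 3.12). Trbv31 (chr6:41557691-41558452, minus strand) lies beyond the constant regions in the opposite orientation and joins by inversion. TRBV19 and TRBV31 were the only 2 of 160 V and J segments, or 1.25%, whose intervals did not overlap between clones of 2 to 4 cells and clones of 1 cell. With only contigs of 3 or more UMIs, which left 66 clones of 2 to 4 cells, 0 segments were apart.

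Between clones of 5 or more cells and clones of 1 cell, 3 of 159 segments (1.89%) had intervals that did not overlap, and all 3 were alpha segments. TRAV5-4 was in 4 of 35 large clones (11.4%, 3.203 to 26.7) and in 5 of 518 clones of 1 cell (0.965%, 0.314 to 2.24). The 4 large clones were clones 2, 8, 13 and 34, with 23, 15, 10 and 5 cells, and had 4 different TRAJ segments. TRAV6-2 was in 3 large clones (8.57%, 1.804 to 23.1) and in 2 clones of 1 cell (0.386%, 0.0468 to 1.39). TRAJ11 was in 4 large clones (11.4%, 3.203 to 26.7) and in 5 clones of 1 cell (0.965%, 0.314 to 2.24). These shares rest on 3 or 4 clones each. With V segments named by family, TRAJ11 alone stayed apart, and neither TRAV5 nor TRAV6 did. The related TRAV5-1 and TRAV5D-4 were in 5 and 2 clones of 1 cell and in 0 large clones. The TRAV5-4 label is also unsure, because clones 13 and 56 had an identical TRA labelled TRAV5-4 and TRAV5D-4. TRAV6-2 and TRAJ11 were lower than in clones of 1 cell when only contigs of 3 or more UMIs were used (-1.12 and -2.61 points, with 11 large clones) and when the large class began at 10 cells (-0.386 and -0.965 points). The segments lie on chromosome 14, Trav5-4 at chr14:53704007-53704514, Trav6-2 at chr14:52667411-52667864 and Traj11 at chr14:54207139-54207197, all on the plus strand.

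**Figure D1:**
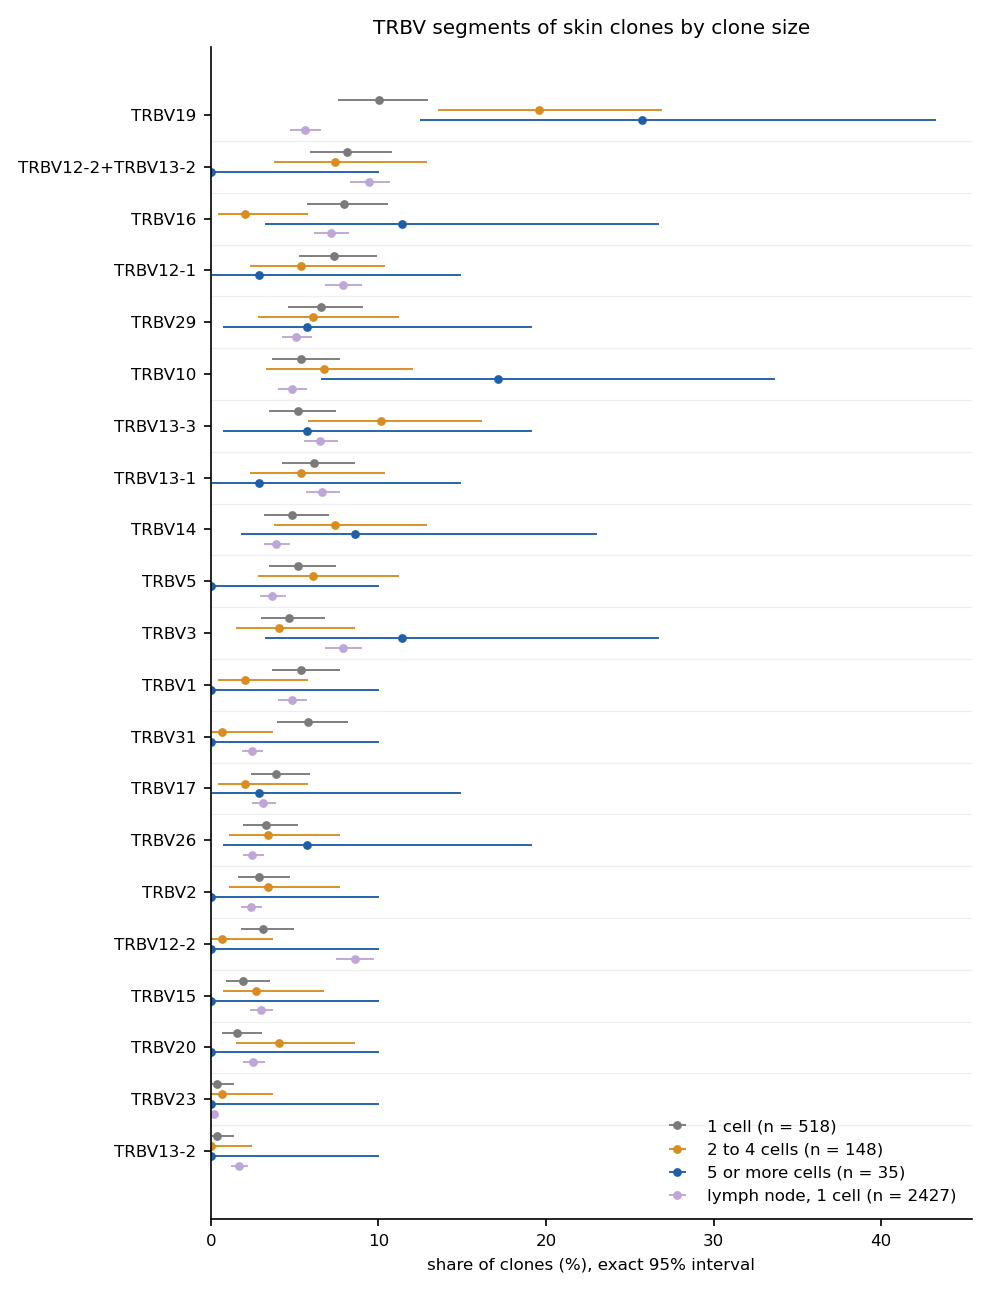
Share of clones that used each TRBV segment, in percent with exact 95% intervals, for skin clones of 1 cell, 2 to 4 cells and 5 or more cells and for lymph node clones of 1 cell. TRBV19 stands at 10.04%, 19.6% and 25.7% of the skin classes, TRBV31 at 5.79%, 0.676% and 0%, and for the other segments the intervals of both larger skin classes overlap that of skin clones of 1 cell.

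The remaining beta V segments had overlapping intervals. TRBV10, as labelled, was at 5.41%, 6.76% and 17.1% of the 3 classes in order of size (28, 10 and 6 clones), a difference of 11.7 points (2.41 to 27.4) between the largest class and clones of 1 cell. With only contigs of 3 or more UMIs that difference was -6.34 points. TRBV3 was at 4.63%, 4.05% and 11.4%. TRBV16 was at 7.92%, 2.03% and 11.4%, lowest in the middle class. TRBV13-3 was at 5.21%, 10.1% and 5.71%, highest there. The joint label TRBV12-2+TRBV13-2 was at 8.11% and 7.43% of the smaller classes and in 0 of 35 large clones, which allows up to 8.57%.

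Of these names, TRBV10 is uncertain. GENCODE annotates Trbv10 as a pseudogene. Pseudogenes were not among the germline segments matched, so the label could not be compared with Trbv10 itself. Among the segments matched, the 154 TRB sequences so labelled in both tissues began most like Trbv3 (a mean of 12.3 matching bases), Trbv4 (12.2) and Trbv2 (12.0). For scale, sequences labelled TRBV19 matched Trbv19 over 13.2 bases and Trbv26 over 11.7. TRBV4 was given to 0 contigs in either table. The 279 sequences of the joint label began like Trbv13-2 (14.3 bases) ahead of Trbv13-1 and Trbv13-3 (8.97 each). In the 183 clones of 2 or more cells, V and J calls agreed among all cells except in 4 clones, where 1 cell each was called TRBV13-2 alone and the rest had the joint label.

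Among J segments of the beta chain, TRBJ1-1 and TRBJ1-2 had higher shares in large clones than in clones of 1 cell. TRBJ1-1 was at 11.8%, 14.9% and 25.7% of the classes, with a difference of 13.9 points (1.99 to 30.5) between the largest and clones of 1 cell. TRBJ1-2 was at 5.41%, 5.41% and 17.1% (11.7 points, 2.41 to 27.4), and TRBJ2-1 at 14.1%, 12.2% and 2.86%. TRBJ2-7, the commonest in clones of 1 cell at 18.3%, was at 17.6% and 11.4% of the larger classes. The other TRBJ1 segments did not share that order between clones of 1 cell and large clones: TRBJ1-3 was at 4.83% and 2.86%, TRBJ1-4 at 8.301% and 8.57%, TRBJ1-5 at 3.67% and 0%, and TRBJ1-6 at 3.28% and 0%. TRBJ2-2 (6.18% and 8.57%) and TRBJ2-4 (6.56% and 8.57%) were higher in large clones. All TRBJ1 segments together made up 37.3% (33.1 to 41.6), 41.9% (33.8 to 50.3) and 54.3% (36.6 to 71.2). None of these pairs of intervals was apart.

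Alpha segments were spread over many names, and no other one separated the classes. TRAV3D-3 led the smaller classes at 5.98% and 6.76% and was in 0 of 35 large clones. TRAV6-6 was at 4.25%, 4.05% and 8.57%, TRAV16N at 2.32%, 5.41% and 2.86%, TRAV12D-2 at 2.90%, 4.73% and 2.86%, and TRAV12D-3 at 3.67%, 3.38% and 0%. The 3 TRAJ segments with most clones of 1 cell were TRAJ23 (6.76%), TRAJ30 (6.37%) and TRAJ26 (5.98%), each in 0 large clones. A count of 0 of 35 here allows a share of up to 8.57%. TRAJ22 (8.11%), TRAJ12 (7.43%) and TRAJ32 (5.41%) led the clones of 2 to 4 cells. After TRAJ11, large clones used TRAJ34, TRAJ37 and TRAJ45 most, in 3 clones each.

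The invariant alpha chains of NKT cells (TRAV11 or TRAV11D with TRAJ18) and of MAIT cells (TRAV1 with TRAJ33), which recognise lipids and vitamin metabolites, were in 0 of 701 clones. This allows a share of up to 0.428%. Contigs of gamma or delta chains numbered 0. Whether the library could capture such chains was not tested, so this 0 does not show that cells with them were absent. No receptor feature marks CD8 T cells as such, and skin RNA was not analysed here.

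**Figure D2:**
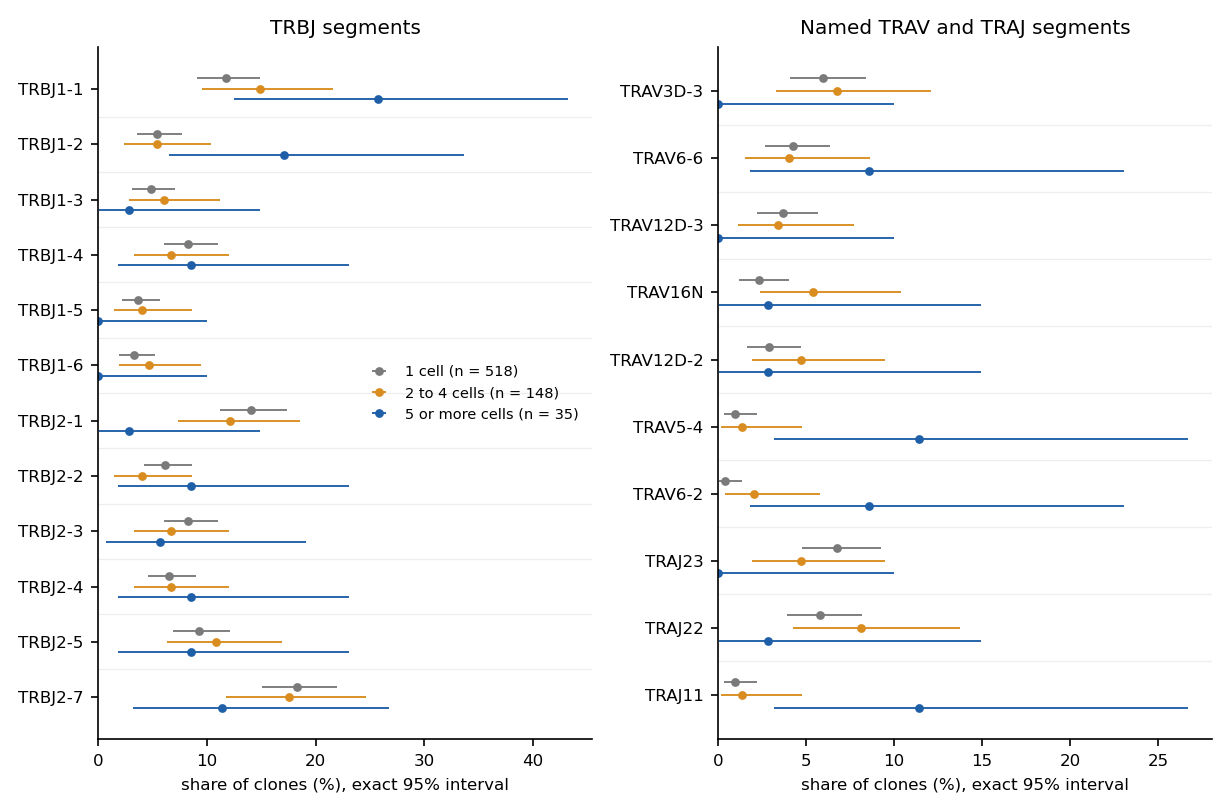
Share of clones that used each TRBJ segment (left) and the named TRAV and TRAJ segments (right), in percent with exact 95% intervals, for the 3 skin classes. TRAV5-4, TRAV6-2 and TRAJ11 are at 11.4%, 8.57% and 11.4% of clones of 5 or more cells and under 1% of clones of 1 cell, and every TRBJ interval overlaps between classes.

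Most large clones with TRAV6-2 or TRAJ11 were 1 recurrent receptor. The chain pair was TRBV10 with TRBJ1-2 and TRAV6-2 with TRAJ11. Versions of it were all 3 large clones with TRAV6-2, 3 of the 4 with TRAJ11, 3 of the 6 labelled TRBV10 and 3 of the 6 with TRBJ1-2. The pair formed 5 clones of 7, 6, 5, 2 and 1 cells, 21 cells in all. The 5 are shown because their beta protein is the same in each although the nucleotides differ. Capitals mark the positions that differ within the group, and positions are counted from 1 at the 5′ end.
clone 26 TRB: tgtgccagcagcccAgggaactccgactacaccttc
clone 26 TRA: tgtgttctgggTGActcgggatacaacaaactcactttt
clone 31 TRB: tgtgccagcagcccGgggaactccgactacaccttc
clone 31 TRA: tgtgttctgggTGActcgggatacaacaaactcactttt
clone 35 TRB: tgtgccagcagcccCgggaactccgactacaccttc
clone 35 TRA: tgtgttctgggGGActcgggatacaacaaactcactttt
clone 181 TRB: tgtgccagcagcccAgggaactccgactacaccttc
clone 181 TRA: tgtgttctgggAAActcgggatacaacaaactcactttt
clone 693 TRB: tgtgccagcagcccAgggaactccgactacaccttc
clone 693 TRA: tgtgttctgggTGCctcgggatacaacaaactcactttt
Relative to clone 26, the TRB of clone 31 carried A15G and that of clone 35 carried A15C, and neither altered the protein. The 3 largest also shared the TRA protein, with the silent T12G in clone 35. Clone 181 (T12A and G13A) and clone 693 (A14C) differed from it by 1 TRA residue each. The 5 clones thus held 3 TRB nucleotide sequences for 1 protein, and 4 TRA nucleotide sequences for 3 proteins. In skin, 29 barcodes had this TRB protein in a kept contig, with or without a clone. In the lymph node 3 barcodes had it, and 2 clones of 1 cell paired it with TRAV6-2 and TRAJ11. When clones with the same TRA and TRB protein were counted once, the number of segments apart between large clones and clones of 1 cell fell from 3 to 1.

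TRBV19 clones did not derive from a single receptor. The 52 TRBV19 clones of 1 cell used 34 TRAV segments and the 38 of 2 or more cells used 23. TRBV19 joined to TRBJ1-1 was at 2.32% (1.20 to 4.01), 6.76% (3.29 to 12.1) and 11.4% (3.203 to 26.7) of the size classes, from 12, 10 and 4 clones, and at 0.865% of lymph node clones of 1 cell. TRBV19 joined to other J segments was at 7.72%, 12.8% and 14.3%, with overlapping intervals. Of the latter, the 24 clones of 2 or more cells held 21 TRB nucleotide sequences, and the 40 clones of 1 cell held 39. TRBJ1-1 with other V segments was at 9.46%, 8.11% and 14.3%.

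The TRBV19 with TRBJ1-1 chains were shorter on average than other TRB chains. Their CDR3 averaged 12.4 ± 0.852 residues (SD, n = 14 clones) in clones of 2 or more cells and 12.7 ± 0.651 (n = 12) in clones of 1 cell, against 14.2 ± 1.29 (n = 145) and 14.1 ± 1.43 (n = 466) in clones without TRBV19. TRBV19 chains with another TRBJ averaged 13.6 ± 1.28 (n = 24) and 13.7 ± 1.38 (n = 40), and lymph node clones of 1 cell with TRBV19 and TRBJ1-1 averaged 13.2 ± 1.03 (n = 21). Glycine, the smallest residue, stood at the sixth position in 13 of the 14 larger clones (92.9%, 66.1 to 99.8) and in 10 of the 12 clones of 1 cell (83.3%, 51.6 to 97.9). In TRBV19 chains with another TRBJ it stood there in 58.3% (36.6 to 77.9) and 52.5% (36.1 to 68.5), in lymph node clones of 1 cell with TRBV19 and TRBJ1-1 in 57.1% (34.02 to 78.2), and in clones without TRBV19 in 35.2% and 33.5%. The intervals of the TRBV19 groups overlapped. The feature was chosen after the sequences were seen, and it did not differ between the sizes beyond the intervals. The TRB of the clones of 2 to 8 cells are shown beside those of clones 5, 12 and 13 above, again with unmatched bases in capitals.
clone 20 TRB: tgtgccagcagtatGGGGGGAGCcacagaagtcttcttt
clone 54 TRB: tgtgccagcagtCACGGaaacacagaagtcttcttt
clone 56 TRB: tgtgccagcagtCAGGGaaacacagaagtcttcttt
clone 62 TRB: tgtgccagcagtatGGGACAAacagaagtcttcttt
clone 85 TRB: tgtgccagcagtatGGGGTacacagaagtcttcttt
clone 121 TRB: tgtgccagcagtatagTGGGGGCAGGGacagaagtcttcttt
clone 129 TRB: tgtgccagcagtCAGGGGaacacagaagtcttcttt
clone 151 TRB: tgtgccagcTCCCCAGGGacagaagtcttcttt
clone 156 TRB: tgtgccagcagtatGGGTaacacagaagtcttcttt
clone 164 TRB: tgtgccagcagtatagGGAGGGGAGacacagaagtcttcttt
clone 178 TRB: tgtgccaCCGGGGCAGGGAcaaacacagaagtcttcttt
Most of these chains carry GGG or GGGG in the unmatched stretch, which in beta includes the D segment. Runs of GGG also stood in the unmatched TRB bases of clones 1, 2, 4, 7, 9 and 10, which lack TRBV19, but not in clone 3. The share of chains with such runs was not compared. The TRB of 3 of the 12 clones of 1 cell was identical to one of the larger clones, namely clone 557 to clone 5, clone 406 to clone 121 and clone 645 to clone 156, each with another TRA. Clone 13 and clone 56 (4 cells) carried an identical TRA nucleotide sequence with TRAJ28, labelled TRAV5-4 in the first and TRAV5D-4 in the second, and their TRB differed by A13C and T14A, a single residue. Clones 20 and 54 (8 and 4 cells) both paired TRBV19 and TRBJ1-1 with TRAV6N-7 and TRAJ4.

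Recurrence was also seen among small clones. TRBV19 was paired with TRAV6N-7 and TRAJ30 in 6 clones of 2, 1, 1, 1, 1 and 1 cells, with 6 different TRBJ segments. Of these 6, 5 had the same TRA protein, from 3 nucleotide sequences, and in skin that protein was in no clone with another TRBV. The TRA of the 6 clones are shown with differing positions in capitals.
clone 154 TRA: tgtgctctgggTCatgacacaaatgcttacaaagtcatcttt
clone 545 TRA: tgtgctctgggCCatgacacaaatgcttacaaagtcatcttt
clone 546 TRA: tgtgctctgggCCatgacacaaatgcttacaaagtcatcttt
clone 550 TRA: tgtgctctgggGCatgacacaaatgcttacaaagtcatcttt
clone 556 TRA: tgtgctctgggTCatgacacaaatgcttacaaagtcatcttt
clone 573 TRA: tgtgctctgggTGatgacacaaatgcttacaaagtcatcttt
Relative to clone 154, the silent changes were T12C in clones 545 and 546 and T12G in clone 550. Clone 573 carried C13G, which altered 1 residue. In the lymph node, 4 clones had the commonest of these TRA proteins, 2 of them with TRBV19. The largest of the 6 clones had 2 cells.

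One alpha chain was met with many betas. The TRA of TRAV8D-2 and TRAJ21 had the same nucleotide sequence in 7 clones of 9, 9, 4, 1, 1, 1 and 1 cells (26 cells), with 5 TRBV segments. It is shown as the alpha chain with most partners, in lower case because no base of it was left unmatched by the germline segments.
TRAV8D-2 and TRAJ21 TRA of clones 14, 15, 42, 396, 397, 398 and 399: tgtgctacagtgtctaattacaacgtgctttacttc
Clones 14 and 15, of 9 cells each, paired it with TRBV14, over TRBJ2-4 and TRBJ2-7. In all, 36 TRA sequences were in several skin clones with different TRB, and 7 of the 36 had no unmatched base. Clones with such a TRA made up 57 of 518 clones of 1 cell (11.0%, 8.44 to 14.02), 18 of 148 (12.2%, 7.37 to 18.5) and 10 of 35 large clones (28.6%, 14.6 to 46.3). Of the 36, 21 joined a clone of 2 or more cells with a clone of 1 cell.

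Near-identical receptors were looked for in the same way in every class. A skin clone with another TRB nucleotide sequence, the same TRBV and a TRB protein at most 1 residue away existed for 12.5% (9.82 to 15.7), 13.5% (8.45 to 20.1) and 17.1% (6.56 to 33.6) of the classes. With a TRA at most 1 residue away as well, the shares were 3.28% (1.92 to 5.20), 4.05% (1.502 to 8.61) and 11.4% (3.203 to 26.7). The 4 large clones among the latter were clones 13, 26, 31 and 35, described above.

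CDR3 length differed little between the size classes. The TRB CDR3 averaged 14.03 ± 1.43 residues (SD) in 518 clones of 1 cell, 14.01 ± 1.32 in 148 clones of 2 to 4 cells and 13.9 ± 1.45 in 35 larger clones. The TRA CDR3 averaged 13.5 ± 1.44, 13.7 ± 1.31 and 13.7 ± 1.24. All 6 medians were 14 residues, and the largest difference between class means, 0.278 residues for TRA, was under 1 SD. TRB CDR3 of 12 residues were at 10.2%, 14.2% and 22.9% of the classes. Within TRBV19 the TRB CDR3 averaged 13.4 ± 1.32 residues (n = 52), 13.03 ± 1.21 (n = 29) and 13.7 ± 1.41 (n = 9).

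The number of bases that matched neither germline segment was also alike. For TRB it averaged 10.1 ± 3.64 (n = 448), 10.3 ± 3.41 (n = 127) and 10.6 ± 4.17 (n = 29), leaving out the 97 clones labelled TRBV10 or TRBV12-2+TRBV13-2. For TRA it averaged 2.61 ± 1.96 (n = 518), 2.89 ± 1.98 (n = 148) and 2.31 ± 1.62 (n = 35). In beta these bases include the D segment. TRA with no such base were in 16.2%, 10.8% and 20% of the classes, with overlapping intervals.

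Net charge, counted as lysines and arginines minus aspartates and glutamates, differed little in TRB and was lower in the TRA of large clones. The TRB mean was -0.734 ± 0.920, -0.750 ± 0.939 and -0.600 ± 0.847 in the classes. The TRA mean was 0.525 ± 0.874, 0.601 ± 0.831 and 0.200 ± 1.02, a difference of -0.325 between the largest class and clones of 1 cell, smaller than 1 SD. For all clones of 2 or more cells as 1 class, the TRA difference from clones of 1 cell was -0.000506. TRA of positive charge were in 53.5% (49.1 to 57.8), 57.4% (49.0 to 65.5) and 40.0% (23.9 to 57.9) of clones, with overlapping intervals. The lowest TRA charge among large clones, -3, was that of clone 2.

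**Figure D3:**
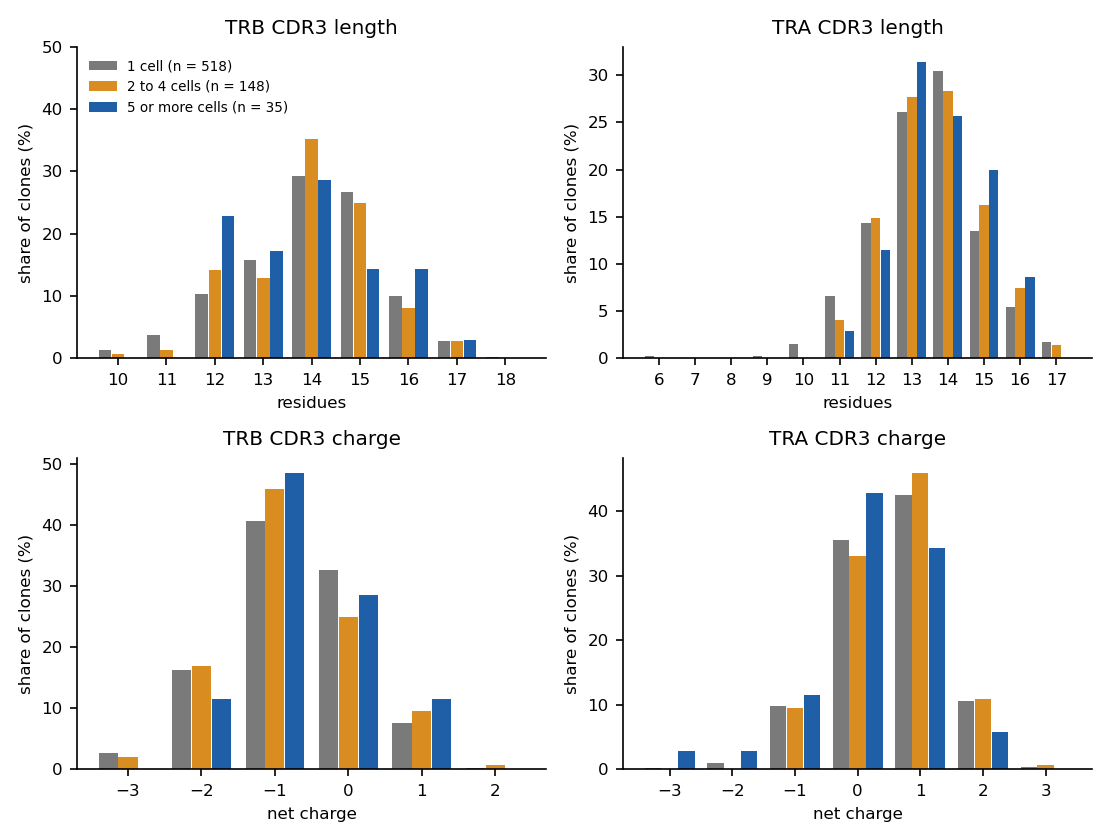
Distribution of CDR3 length in residues (top) and net charge (bottom) for TRB (left) and TRA (right), as the share of clones in each skin size class. The classes lie over each other for length, with 22.9% of large clones at a TRB of 12 residues against 10.2% of clones of 1 cell. Clones 26, 31 and 35, with the same TRB protein, are counted singly in the former. The TRA charge of large clones averages 0.200 against 0.525 in clones of 1 cell.

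Acidic and aromatic residues in the TRA core had shares that differed most in large clones. At least 1 aspartate or glutamate in the core of the TRA CDR3, without the first and last 3 residues, was in 220 of 518 clones of 1 cell (42.5%, 38.2 to 46.9), 63 of 148 (42.6%, 34.5 to 51.0) and 22 of 35 large clones (62.9%, 44.9 to 78.5). A basic residue was in 77.0%, 78.4% and 88.6%. Aromatic residues went the other way in large clones, at 65.1% (60.8 to 69.2), 67.6% (59.4 to 75.02) and 45.7% (28.8 to 63.4) for TRA, and 42.5%, 36.5% and 28.6% for TRB. The intervals of large clones overlapped those of clones of 1 cell for 13 of 13 residue measures (0% apart). The 5 clones with TRAV6-2 and TRAJ11 are counted singly here.

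Between clones of 2 to 4 cells and clones of 1 cell, 1 of the same 13 measures was apart (7.69%). Glycine in the TRB core, a measure added after the values were seen, was in 93.2% (87.9 to 96.7) of clones of 2 to 4 cells against 83.0% (79.5 to 86.1) of clones of 1 cell and 80.0% (63.1 to 91.6) of large clones. Without TRBV19 clones it was in 91.6% (85.1 to 95.9), 82.2% (78.4 to 85.6) and 73.1% (52.2 to 88.4), so it did not follow clone size in order. With only contigs of 3 or more UMIs the difference between clones of 2 to 4 cells and clones of 1 cell was 1.68 points in place of 10.2.

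Hydrophobic residues at both the sixth and seventh TRB positions, a feature linked to self-reactivity in earlier work on T cell development, were rare. They were in 5 of 518 clones of 1 cell (0.965%), 3 of 148 (2.03%) and 0 of 35 large clones. Proline in the TRB core was at 25.3%, 21.6% and 25.7%, and 0 clones had a cysteine in either core.

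A second TRA was found in a lower share of the cells of larger clones. The mean share of a clone's cells with a second TRA was 14.5% in clones of 1 cell, 8.28% in clones of 2 to 4 cells and 7.68% in larger clones. Counted over cells this was 75 of 518 (14.5%), 33 of 386 (8.55%) and 20 of 418 (4.78%). It was found in most cells of 10 of 148 clones of 2 to 4 cells (6.76%, 3.29 to 12.1) and 2 of 35 larger clones (5.71%, 0.700 to 19.2), and in any cell of 19 (12.8%, 7.91 to 19.3) and 8 (22.9%, 10.4 to 40.1). The order of the classes thus depended on the rule.

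The second TRA of a clone was the same in every cell that had one. Of the 19 clones of 2 to 4 cells with a second TRA, 10 showed it in 2 or more cells, and of the 8 larger clones 4 did. Clone 30 (6 cells) showed it in 5 cells, clones 8 and 23 (15 and 7 cells) in 4, and clone 24 (7 cells) in 3. Clones with 2 kinds of second TRA numbered 0. The second TRA was the first TRA of another skin clone in 23 of 75 clones of 1 cell, 12 of 19 and 7 of 8, and in 16, 8 and 6 of these the other clone had the same TRB. Whether such pairs are 1 clone, named by whichever TRA had more UMIs in a cell, was not tested. When clones linked in this way were merged, the difference in the mean share with a second TRA between large clones and clones of 1 cell went from -6.80 to 0.294 points.

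**Figure D4:**
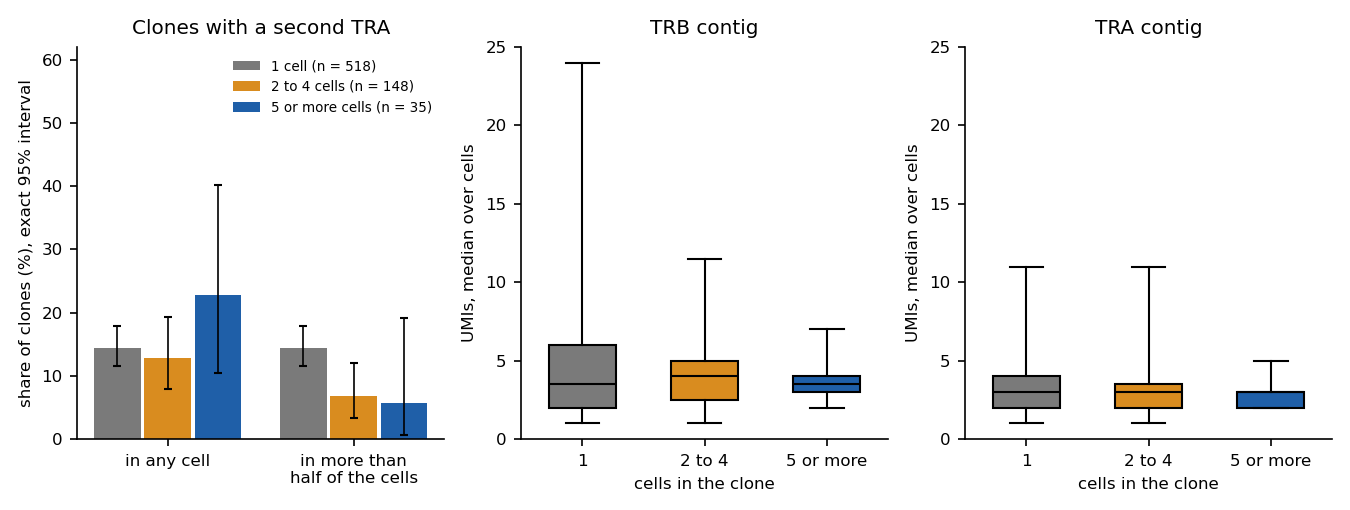
Left, share of clones with a second TRA in any cell and in most of their cells, in percent with exact 95% intervals, by skin size class. Middle and right, UMIs of the TRB and TRA contigs as the median over a clone's cells, with boxes from quartile to quartile, a line at the median and whiskers to the lowest and highest clone; class medians lie between 3 and 4.

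Contig UMIs, which limit how well a chain is read, differed between the classes by less than 1 SD of clones of 1 cell. The median clone had 3.5, 4 and 3.5 UMIs for TRB and 3 in each class for TRA. Means were 4.64 ± 3.73, 4.003 ± 1.86 and 3.79 ± 1.14 for TRB (SD over clones). Cell by cell, the TRB mean was 4.64 ± 3.73, 4.17 ± 2.76 and 4.55 ± 2.77 (SD over cells) and the TRA mean 3.09, 3.205 and 3.01. Cells with more than 10 TRB UMIs were 42 of 518 (8.11%), 13 of 386 (3.37%) and 16 of 418 (3.83%), more in clones of 1 cell. Cells with a TRB of 1 UMI were also more there, at 15.1%, 12.2% and 7.42%, whereas cells with a TRA of 1 UMI were at 18.5%, 18.9% and 18.2%. Clones of 1 cell with a second TRA had a mean of 4.73 TRB UMIs (n = 75) and those without 4.62 (n = 443).

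Some clones of 1 cell were tied to larger ones. The TRB nucleotide sequence of 33 of 518 clones of 1 cell (6.37%, 4.43 to 8.83) was also that of a clone of 2 or more cells, and 19 of the 33 also had a first or second TRA in common with it. In 102 (19.7%, 16.4 to 23.4) the TRB was in at least 1 other skin barcode of any kind. A TRA shared with a larger clone together with a TRB 1 base away was found in 0 of 518.

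At the border of the largest class, 28 clones had 4 cells and 4 clones had 5. TRBV19 was in 4 of the former and 1 of the latter, and the mean TRB CDR3 length was 13.8 and 14 residues.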

How the data were processed

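Receptor contigs of the skin library, and of the lymph node library for reference, were analysed from the deposited contig tables, in which the authors give UMI counts and read numbers for each contig and pool 4 lanes per library. Per the submitters' processing notes, mm10, RSEM and Bowtie were used, in roles not stated, and no source used here gives the contig assembler. Skin RNA was not analysed here, so receptor chains were the only check of the sorted cell type, and none of them marks CD8 T cells.

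Productive, full-length TRA and TRB contigs were kept (3603 of 4545 in skin). In cells with 2 TRA the one with more UMIs came first, and ties (44 of 128 cells) went to the alphabetically first sequence. Each clone took the V and J names held by most of its cells. Shares have exact 95% intervals, and a segment counted as apart where the intervals of 2 classes did not overlap. A share of 0 has the limit that 3 counts would set, which is 8.57% for the 35 large clones and is not printed at every 0. The clone builder recovered all clones of simulated data, in which every cell had both chains and no TRA tied in UMIs. That simulation cannot show how missing chains or ties affect the clones of the skin data. Germline segments came from GENCODE mouse release 21. Python 3.11.15, pandas 2.3.3, scipy 1.17.1 and statsmodels 0.14.6 were used.

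Named segments were the 3 most used per class and gene type, those apart between classes, and the 3 TRBV and 3 TRAV with the largest differences. Clones of 10 or more cells were all named. Recurrent receptors, the glycine measures and the residue positions were added after values were seen. The members and lists were chosen with earlier results of these data known. Alternatives changed the contig filter, clone definition, size classes, segment naming, weighting and per-clone summaries.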

Additional observations from a re-analysis of the deposited data

Results flagged for a closer look

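Barcodes outside the clone comparison also carried the receptors of expanded clones. Of 366 skin barcodes with 1 TRB and no TRA, 204 had the TRB of a clone of 2 or more cells, 41 that of a clone of 1 cell and 121 that of no clone. Set against the cells counted in clones, barcodes without a TRA made up 7.33% (5.31 to 9.82) of those with a TRB of a clone of 1 cell, 15.9% (12.7 to 19.6) for clones of 2 to 4 cells and 23.9% (20.4 to 27.7) for larger clones. By construction, a barcode without a TRA is tied to a clone only where another cell has its TRB in a full pair, so the 121 stand in none of these shares. Clone 11, of 11 cells, had 19 further barcodes of this kind, and clone 1 had 13.

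Among 72 skin barcodes with 2 TRB, which were left out of the clones, 42 held the TRB of a clone of 2 or more cells. By the largest clone involved, 26 held one of 5 or more cells, 16 one of 2 to 4 cells, 6 one of 1 cell and 24 none. Whether these are doublets was not tested.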

How the results depend on the processing

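Of 461 values recomputed under 22 alternatives, 424 stayed within the error of the reported value (for counts, within 1.5 times), 33 moved beyond it and 4 reversed. In all, 36 had the opposite sign: 4 of segments whose intervals were apart (TRAV6-2 and TRAJ11, below), 8 others that moved beyond the error, and 24 of differences within it, such as small differences in TRA UMIs or TRB glycine. The alternative of high confidence contigs only had to agree, because 0 skin contigs were not high confidence. It is counted in the 424 and in the tallies of alternatives below. Leaving out 3 residues at each CDR3 end could not change length differences either. Naming by V family could not change TRBV19 or TRBV31, each the sole member of its family, and is also counted in their tallies. The TRBV19 share stayed above that of clones of 1 cell in 11 of 11 alternatives for clones of 2 to 4 cells (5.55 to 12.7 points) and 14 of 14 for larger clones (10.6 to 28.4), and TRBV31 stayed below in all of these (-5.51 to -3.36 and -6.53 to -3.36). With contigs of 3 or more UMIs, which left 345 clones and 11 of 5 or more cells, TRAV6-2 and TRAJ11 reversed in large clones (-1.12 and -2.61 points), as they did with a large class of 10 or more cells (-0.386 and -0.965). The number of segments apart in clones of 2 to 4 cells fell from 2 to 0 with contigs of 3 or more UMIs and to 1 by TRB alone or by the authors' identifier. In larger clones it fell from 3 to 1 with contigs of 3 or more UMIs, by TRB alone, by V family, and with equal proteins counted once. The second TRA difference in large clones became 0.294 points with merged clones and 8.38 when any cell sufficed. Taking the highest cell of a clone, which grows with its size, UMI differences became 1.29 (TRB) and 1.31 (TRA) for 2 to 4 cells and 3.82 and 3.34 for larger clones, and TRA UMIs were -0.550 for clones of 10 or more cells. Clones of 1 cell that share a TRB with a larger clone were 2.24% with 3 or more UMIs, 2.84% with merged clones, and 0% by construction by TRB alone or with them left out. Clones with differing calls numbered 0 with 3 or more UMIs, 49 by TRB alone, 8 by the authors' identifier and 28 when merged. By TRB alone, by the authors' identifier or when merged, the cells of a clone need not share a first TRA. Those counts can therefore include different chains, and not only differing calls of the same chain. Shallow contigs and 35 large clones limit precision. No paired analysis was possible because each tissue has 1 library, and for the same reason no replicate could be left out.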
